A study of Mus musculus with 9 samples.

Results

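Transcripts of P-selectin, of its ligands and of the enzymes that glycosylate those ligands were followed in sorted mouse hematopoietic stem cells (HSCs). The 8 genes were Selp (P-selectin), the ligand core proteins Selplg, Podxl and Cd44, and the glycosyltransferases Fut7, Gcnt1, St3gal4 and C1galt1. They were chosen as the rows of the deposited gene count table that carry these gene names, 8 of 56748 genes, and 8 of 8 passed the filter on low counts in each comparison.

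The study asked how HSCs of pre-aged mice (paHSCs) with high and low surface P-selectin differ from each other and from HSCs of young mice (yHSCs). Bone marrow cells of the SLAM HSC phenotype, Lin- Sca1+ c-Kit+ CD48- CD150+, were sorted from female mice of a C57BL/6 background aged 6 to 10 weeks (yHSCs) or 14 to 16 months (paHSCs). The paHSCs were further gated into Selp low and Selp high fractions, whereas the yHSCs were not divided by surface Selp, so that a comparison with yHSCs covers age and gate together. There were 3 RNA-seq libraries per group, and no treatment or engineered allele is named for any of the 3 groups. How many animals stand behind a library is not given in the sources used here, so the p-values measure only the spread between these libraries.

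The 9 libraries held 24866975 to 35375310 counts. Selp low paHSC replicates 2 and 3 stood apart, with 44.8% and 20.9% of their counts in the 10 most abundant genes of the library, against 3.90% to 12.5% in the other 7. Their TMM factors were 0.545 and 0.785, against 1.05 to 1.22 in the other 7. A count was present for 21094 genes in yHSC replicate 2 and for 21755 and 25192 in Selp high paHSC replicates 1 and 3. The remaining libraries had 31236 to 34143 such genes. Of 10 HSC markers, none was at 0 in any library, and their summed level was 1071 to 2340 CPM (counts scaled to the library size, here with TMM factors) in yHSCs, 848 to 1580 CPM in Selp low paHSCs and 2233 to 3329 CPM in Selp high paHSCs. Markers of other cells were present as well. The summed level of 13 B and plasma cell markers was 458200 CPM in Selp low paHSC replicate 2, 21760 CPM in replicate 1 and 1376 CPM in replicate 3. It was 3145, 21250 and 6163 CPM in Selp high paHSC replicates 1 to 3, all above the 935 to 1730 CPM of the yHSCs. The 12 neutrophil markers summed to 213900 CPM in Selp low paHSC replicate 3 (16.8% of its counts) and to 583.7 to 64960 CPM in the other 8 libraries. None of the neutrophil markers was at 0 in any library, and of the B and plasma markers only Pax5 was, in Selp high paHSC replicate 3. The 7 markers that the HSC gate selects against summed to 290.5 to 1172 CPM in Selp low paHSCs, above every library of the other groups (59.3 to 175.6 CPM). The 10 T and NK cell markers summed to 345 to 968 CPM in Selp low paHSCs and to 59.9 to 154 CPM in the other groups. The 13 megakaryocyte and platelet markers summed to 585 to 1032 CPM in yHSCs, 637 to 2676 CPM in Selp low paHSCs and 3251 to 9501 CPM in Selp high paHSCs. Over 27 comparisons of summed marker levels, the smallest 2-sided exact permutation p was 0.1, the smallest that 3 against 3 libraries allow (0.27 after Benjamini-Hochberg adjustment). The part of these other markers in the results was not tested, and in such bulk libraries fewer cells of a type and less RNA per cell cannot be told apart.

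**Figure D1:**
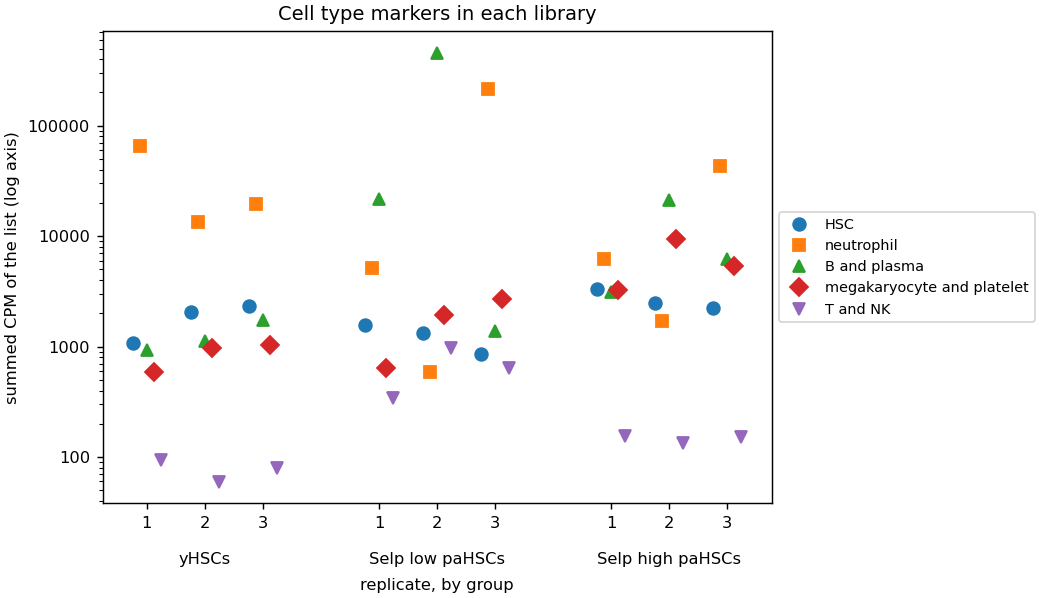
Summed level in CPM, on a log axis, of 5 lists of cell type markers in each of the 9 libraries, with the libraries in their 3 groups. The B and plasma cell markers reached 458200 CPM in Selp low paHSC replicate 2 and the neutrophil markers 213900 CPM in replicate 3, whereas the megakaryocyte and platelet markers were at 3251 CPM or more in the 3 Selp high paHSC libraries and at 2676 CPM or less in the others.

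P-selectin is a lectin of platelets and endothelium that is kept in granules and brought to the cell surface on activation, where it lets leukocytes tether and roll. It binds mucin-like proteins, above all PSGL-1, the product of Selplg, when their O-glycans carry the sialyl Lewis x cap. C1GALT1 builds the core 1 O-glycan, GCNT1 branches it to core 2, ST3GAL4 adds an α2,3-linked sialic acid and FUT7 adds the final fucose, and HSCs use selectin binding when they home to the bone marrow.

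Of the 8 genes, Selp was higher in Selp high paHSCs than in either other group, Podxl was highest in the Selp high fraction at a low level, Fut7 was lower in both paHSC fractions than in yHSCs, and the levels of Selplg, Cd44, Gcnt1 and St3gal4 overlapped between all groups in TMM-scaled CPM. TPM are counts per gene length scaled to the library sum, without TMM factors. In TPM, every Selp low library was below every yHSC library for Selplg, Cd44 and St3gal4. The highest Selp low and lowest yHSC levels were 95.3 and 117.4, 41.6 and 51.6, and 31.8 and 36.8 TPM. For C1galt1 these groups overlapped in TPM. Gcnt1 and St3gal4 were lower in TPM in every Selp low than in every Selp high library. A gene was called when its adjusted p was at most 0.05 and its log2 fold change was 1 or more in size. Between the Selp high and Selp low fractions, 0 of the 8 genes were called by the quasi-likelihood test of edgeR, as were 0.0% of all 20370 genes tested. DESeq2 called 1 of the 8, against 2.21% of all genes. That gene was Selp, which encodes the antigen of the gate, so its call is not independent of the sort. At an unadjusted p under 0.05, edgeR counted 1 of the 8 genes and 12.5% of all genes. These fits held no term for the replicate number, and no label states that same-numbered libraries belong together. With such a term (the replicate block), edgeR called 0 of the 8 genes and DESeq2 called 1 (Selp), against 0.0442% and 9.17% of all genes. In Selp high paHSCs against yHSCs, edgeR called 1 of the 8 (Selp; 0.165% of all genes), DESeq2 called 3 (Selp, Podxl and Fut7; 2.99% of all genes) and limma voom with quality weights called 2 (Selp and Fut7; 1.37% of all genes). In Selp low paHSCs against yHSCs, edgeR called 0 (0.0% of all genes; 3 of the 8 genes and 11.3% of all genes at an unadjusted p under 0.05), and DESeq2 and limma each called 1 (Fut7; 2.89% and 2.11% of all genes). The libraries of the compared groups did not overlap for 2 of the 8 genes between Selp high and Selp low paHSCs (20.9% of all genes), for 3 between Selp high paHSCs and yHSCs (13.8%) and for 2 between Selp low paHSCs and yHSCs (16.3%). The last 2 of the 3 comparisons share the yHSC libraries. The median log2 fold change of the 8 genes was 0.18, 0.34 and -0.11 in the 3 comparisons, in the order given, beside -0.11, -0.03 and 0.08 over all genes tested.

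**Figure D2:**
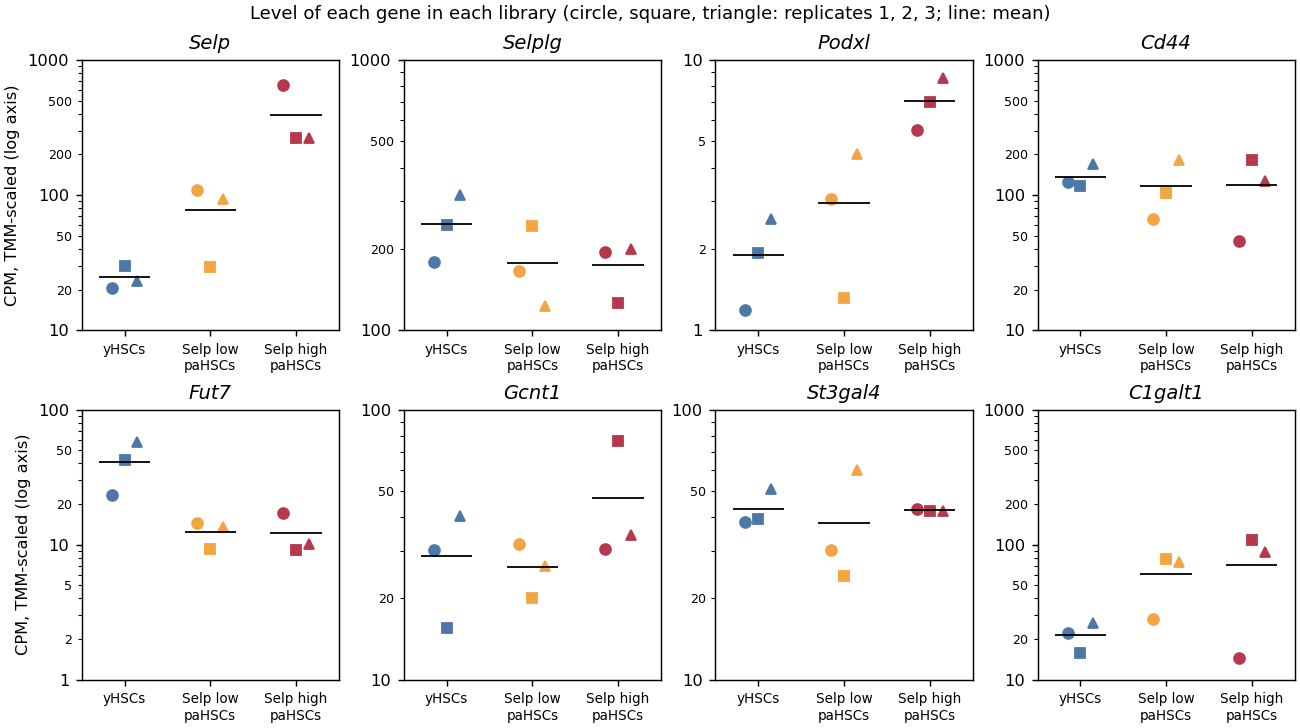
Level of each of the 8 genes in each library, in TMM-scaled CPM on a log axis, for the 3 groups, with replicates 1 to 3 as circle, square and triangle and the group mean as a line. Selp and Podxl were highest in the 3 Selp high paHSC libraries, and the 6 paHSC libraries were below the 3 yHSC libraries for Fut7.

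Selp (ENSMUSG00000026580) encodes P-selectin, the antigen of the gate, so its transcript checks the labels of the 2 paHSC fractions and their difference is not independent of the sort. Nor is the Selp difference of either fraction from yHSCs, which were not divided by surface Selp. The gene lies on the plus strand at chr1:163942833-163977595 (build mm39). The RefSeq promoter window of Selp, from 250 bases before to 50 bases after the start, is shown because Selp had the largest difference of the 8 genes. It lies on the plus strand at chr1:164115014-164115313 of another build, GRCm38.p6. Capitals mark both matches to AGGAAG, the core bound by ETS factors, searched on both strands and found in 35.4% of 32851 windows of the same length.
Selp: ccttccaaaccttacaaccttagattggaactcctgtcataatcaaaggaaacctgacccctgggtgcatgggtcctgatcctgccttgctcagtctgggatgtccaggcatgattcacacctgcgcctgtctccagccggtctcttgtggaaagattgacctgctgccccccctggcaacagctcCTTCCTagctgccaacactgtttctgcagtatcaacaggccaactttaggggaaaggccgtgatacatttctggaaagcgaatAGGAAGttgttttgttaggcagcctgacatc
The matches start at bases 187 (as CTTCCT, minus strand) and 270 of the window. The window held 4 CpG dinucleotides (median of all windows 7) and 0 matches to the GATA-factor motif, GATA with A or T before it and A or G after it on either strand, so that no match of the 2 motif sets overlapped.

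Selp was at 20.5, 30.0 and 23.2 CPM in the 3 yHSC libraries (24.6 ± 4.90, mean ± SD, n = 3). It was at 108.9, 29.3 and 93.3 CPM in Selp low paHSCs (77.2 ± 42.2, n = 3) and at 652, 265 and 264 CPM in Selp high paHSCs (394 ± 223, n = 3). Every Selp high library was above every library of the other groups, and Selp low paHSC replicate 2 was within the range of the yHSCs. Selp rose 15.7-fold in Selp high paHSCs over yHSCs (log2 fold change 3.97, SE 0.46, adjusted p = 0.0324, edgeR; adjusted p = 1.01e-14, DESeq2). DESeq2 kept this call without each of the 6 libraries in turn (log2 fold changes 3.38 to 4.19), whereas edgeR kept it only without Selp high paHSC replicate 1 and lost it in a fit of all 9 libraries. Between the paHSC fractions the log2 fold change was 2.34 (SE 0.60) with an adjusted p of 0.338 by edgeR and 0.0216 by DESeq2. In the fits with a replicate block, the adjusted p was 0.0908 by edgeR and 1.52e-08 by DESeq2. Without Selp high paHSC replicate 1 or Selp low paHSC replicate 2 the DESeq2 call was lost, with log2 fold changes of 1.77 and 1.97 and adjusted p of 0.146 and 0.153. For Selp low paHSCs over yHSCs the log2 fold change was 1.69 (SE 0.48, adjusted p = 0.332, edgeR; 0.109, DESeq2). DESeq2 called it without Selp low paHSC replicate 2 (log2 fold change 2.03, adjusted p = 0.00165).

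Selp is also a platelet gene. Among the Selp high libraries, replicate 1 had the highest Selp level and the lowest sum of megakaryocyte and platelet markers (3251 CPM), whereas replicate 2, with the highest sum (9501 CPM), had 265 CPM of Selp. Endothelium expresses Selp too, and the 8 endothelial markers summed to 273, 246 and 87.4 CPM in Selp high paHSC replicates 1 to 3, to 115, 89.5 and 45.3 CPM in Selp low paHSCs and to 93.4 to 205 CPM in yHSCs. Each Selp high library was above the Selp low library of its number, although the groups overlapped (mean difference 1.21 on the log2 scale, 2-sided exact permutation p = 0.3, 0.476 after Benjamini-Hochberg adjustment over 27 tests). Selp high paHSC replicate 1, with the highest Selp level, had the highest endothelial sum of the 9 libraries. The part of these markers in the Selp difference was not tested. The antisense lncRNA genes Gm16548 and Gm16587 overlap Selp. They held 4 to 52 and 2 to 58 counts per library, against 445 to 25231 counts of Selp. The strand setting of the counting is not stated, so reads of Selp and of these 2 genes cannot be told apart where they overlap.

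Among the ligand core proteins, Selplg (ENSMUSG00000048163), on the minus strand at chr5:113956597-113970705 (mm39), encodes PSGL-1, the main P-selectin ligand of leukocytes. It was at 178, 246 and 317 CPM in yHSCs, at 165, 243 and 123 CPM in Selp low paHSCs and at 195, 126 and 200.5 CPM in Selp high paHSCs. The groups overlapped in each comparison on this scale. Its log2 fold change was -0.04 between the fractions (SE 0.34), -0.53 for Selp high paHSCs over yHSCs (SE 0.29) and -0.41 for Selp low paHSCs over yHSCs (SE 0.35), with adjusted p of 0.973, 0.815 and 0.771 by edgeR.

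Podxl (ENSMUSG00000025608), on the minus strand at chr6:31496423-31540916 (mm39), encodes podocalyxin, a sialomucin of the CD34 family that can serve as a selectin ligand when suitably glycosylated. It was at 1.19, 1.92 and 2.57 CPM in yHSCs, at 3.05, 1.32 and 4.50 CPM in Selp low paHSCs and at 5.50, 7.02 and 8.56 CPM in Selp high paHSCs. All Selp high libraries were above all libraries of the other groups, which overlapped with each other. These levels rested on 20 to 299 counts per library. For Selp high paHSCs over yHSCs, Podxl was 3.66-fold higher (log2 fold change 1.87, SE 0.47), with an adjusted p of 0.278 by edgeR, 0.0556 by limma and 0.00295 by DESeq2. The DESeq2 call was lost without Selp high paHSC replicate 3 (adjusted p = 0.0527) or without yHSC replicate 2 (adjusted p = 0.0645). Between the fractions it was 1.24 on the log2 scale (SE 0.54, adjusted p = 0.407, edgeR; 0.319, DESeq2), and in Selp low paHSCs against yHSCs 0.69 (SE 0.64, adjusted p = 0.809, edgeR).

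Cd44 (ENSMUSG00000005087), on the minus strand at chr2:102641486-102732010 (mm39), encodes a hyaluronan receptor whose glycoform HCELL binds selectins. Its levels were 124, 117 and 170.0 CPM in yHSCs, 67.1, 104 and 182 CPM in Selp low paHSCs and 45.5, 182.5 and 128 CPM in Selp high paHSCs. The libraries of each paHSC fraction were spread over more than the differences between the group means (137 ± 28.6, 118 ± 58.6 and 119 ± 69.0 CPM, n = 3 each). Its log2 fold change was 0.01 between the fractions, -0.23 in Selp high paHSCs against yHSCs and -0.19 in Selp low paHSCs against yHSCs, with adjusted p of 0.996, 0.999 and 0.962 by edgeR.

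Among the enzymes, Fut7 (ENSMUSG00000036587), on the plus strand at chr2:25313279-25316386 (mm39), encodes the α1,3-fucosyltransferase that completes sialyl Lewis x on leukocytes. The more upstream of its 2 RefSeq promoter windows, chr2:25422992-25423291 of GRCm38.p6 on the plus strand, is shown because Fut7 was the enzyme that DESeq2 and limma called. Capitals mark its 2 matches to the GATA motif given above, which 29.8% of all windows hold.
Fut7: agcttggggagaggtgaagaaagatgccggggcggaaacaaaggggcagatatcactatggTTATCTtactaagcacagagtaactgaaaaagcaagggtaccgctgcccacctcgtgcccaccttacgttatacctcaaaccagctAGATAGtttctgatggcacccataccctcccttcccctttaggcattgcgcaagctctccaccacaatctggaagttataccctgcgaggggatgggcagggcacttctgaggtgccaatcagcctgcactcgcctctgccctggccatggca
The matches start at bases 62 (as TTATCT, minus strand) and 148 (AGATAG), and the window held 8 CpG dinucleotides and 0 matches to AGGAAG. A match is a description of these letters and not a site of binding.

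Fut7 was at 23.5, 42.1 and 58.0 CPM in yHSCs (41.2 ± 17.3, n = 3). It was at 14.4, 9.29 and 13.5 CPM in Selp low paHSCs (12.4 ± 2.74, n = 3) and at 17.3, 9.06 and 10.1 CPM in Selp high paHSCs (12.1 ± 4.48, n = 3). All 6 paHSC libraries were below all 3 yHSC libraries, and the paHSC fractions overlapped. Over yHSCs, the log2 fold change was -1.77 in Selp high paHSCs (SE 0.42) and -1.67 in Selp low paHSCs (SE 0.37), that is 3.42-fold and 3.19-fold lower. By edgeR the adjusted p was 0.236 and 0.332, by limma 0.026 and 0.0454, and by DESeq2 0.00363 and 0.0213. Over the 22 alternatives the log2 fold change stayed between -2.21 and -1.50 in Selp high paHSCs and was at most -1.35 in Selp low paHSCs. The DESeq2 call in Selp high paHSCs was lost without yHSC replicate 2 (adjusted p = 0.115) or yHSC replicate 3 (0.128). In Selp low paHSCs it was lost without Selp low paHSC replicate 2 (0.164), yHSC replicate 2 (0.192) or yHSC replicate 3 (0.369). Between the paHSC fractions the log2 fold change was -0.04 (SE 0.38, adjusted p = 0.973, edgeR). Neutrophils also use Fut7, and the library with the highest sum of neutrophil markers, Selp low paHSC replicate 3, had 13.5 CPM of Fut7. Among the yHSCs, replicate 1 had the highest neutrophil sum (64960 CPM) and the lowest Fut7 level. The part of neutrophil or other cell markers in the Fut7 difference was not tested.

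C1galt1 (ENSMUSG00000042460), on the plus strand at chr6:7844842-7875687 (mm39), encodes the core 1 synthase. It was at 22.2, 15.8 and 26.3 CPM in yHSCs, at 28.3, 78.3 and 74.9 CPM in Selp low paHSCs and at 14.6, 107.9 and 88.9 CPM in Selp high paHSCs. The Selp low libraries were above the yHSC libraries, whereas in the Selp high fraction replicate 1 was the lowest of all 9 libraries and the other two were the highest. The log2 fold change over yHSCs was 1.69 in Selp high paHSCs (SE 0.66, adjusted p = 0.595, edgeR; 0.196, DESeq2) and 1.54 in Selp low paHSCs (SE 0.43, adjusted p = 0.332, edgeR; 0.116, DESeq2). DESeq2 called the former without Selp high paHSC replicate 1 (log2 fold change 2.16, adjusted p = 4.91e-07) and the latter without Selp low paHSC replicate 1 (1.84, adjusted p = 0.0021). In Selp high paHSC replicate 1, 21755 genes had a count, beside 25192 and 33816 in replicates 3 and 2 and 21094 in yHSC replicate 2. The part of these numbers in the C1galt1 levels was not tested. Between the paHSC fractions the log2 fold change was 0.22 (SE 0.72, adjusted p = 0.924, edgeR). Its RefSeq promoter window had a GC content of 82.7% and 52 CpG dinucleotides, more than 99.4% of all windows.

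Gcnt1 (ENSMUSG00000038843), on the minus strand at chr19:17303505-17350208 (mm39), encodes the core 2 branching enzyme. Its levels were 30.3, 15.5 and 40.2 CPM in yHSCs, 31.8, 20.1 and 26.4 CPM in Selp low paHSCs and 30.4, 76.8 and 34.3 CPM in Selp high paHSCs. Only Selp high paHSC replicate 2 was above the range of the yHSCs. The log2 fold change was 0.85 between the paHSC fractions (SE 0.42, adjusted p = 0.465, edgeR), 0.71 for Selp high paHSCs over yHSCs (SE 0.48, adjusted p = 0.886) and -0.09 for Selp low paHSCs over yHSCs (SE 0.39, adjusted p = 0.992).

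St3gal4 (ENSMUSG00000032038), on the minus strand at chr9:34957872-35030564 (mm39), encodes a sialyltransferase that caps the type 2 chains of selectin ligands. It was at 42.7, 42.3 and 42.1 CPM in Selp high paHSCs, at 30.2, 24.2 and 60.0 CPM in Selp low paHSCs and at 38.3, 39.5 and 50.7 CPM in yHSCs. The Selp high libraries lay closest together and within the range of both other groups. Its log2 fold change was 0.15 between the fractions, -0.04 in Selp high paHSCs against yHSCs and -0.13 in Selp low paHSCs against yHSCs, with adjusted p of 0.898, 0.999 and 0.979 by edgeR. The lncRNA gene 4930581F22Rik overlaps St3gal4 on the opposite strand and held 87 to 665 counts per library, against 368 to 1854 of St3gal4, so the level of St3gal4 is uncertain by the reads that the 2 genes share.

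**Figure D3:**
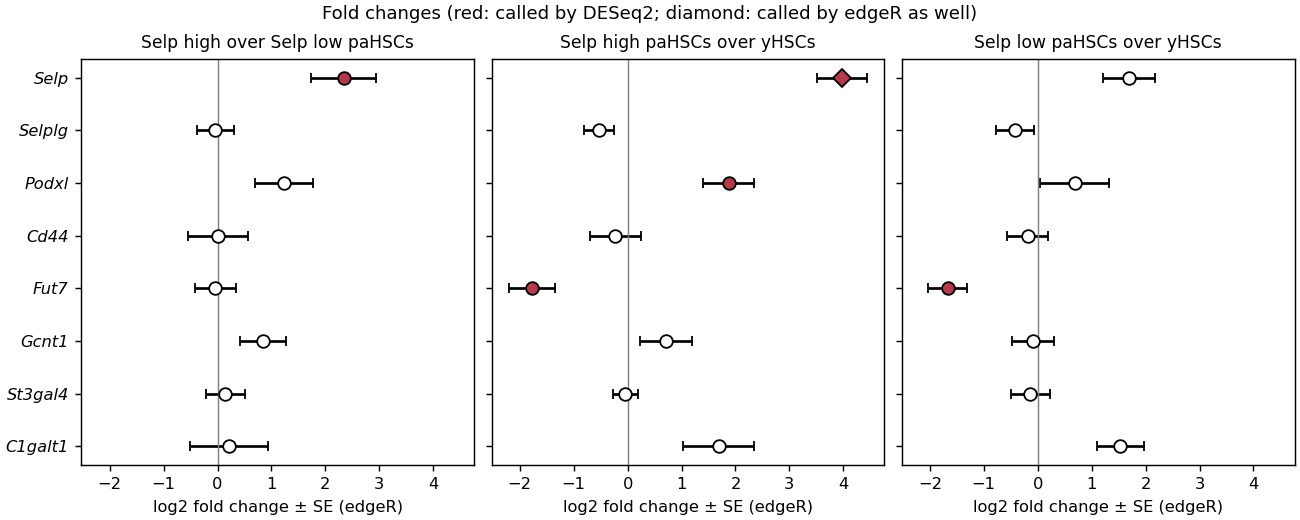
Log2 fold change of the 8 genes by edgeR with its SE in the 3 comparisons, with red symbols for genes that DESeq2 called and a diamond for the gene that edgeR called as well. Selp was called in both comparisons of Selp high paHSCs, Fut7 was called in both comparisons with yHSCs at log2 fold changes of -1.77 and -1.67, and Podxl was called for Selp high paHSCs over yHSCs.

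Levels of different genes were compared per length, as FPKM, the CPM divided by the gene length in kilobases. In yHSCs, Selplg had the highest level (57.9 ± 16.3 FPKM, n = 3). Cd44 (20.3 ± 4.22), Fut7 (17.5 ± 7.33) and St3gal4 (14.7 ± 2.34) followed and overlapped with their neighbours in this order. Selp (5.57 ± 1.11), Gcnt1 (4.98 ± 2.16) and C1galt1 (3.52 ± 0.869) formed the next set of overlapping levels, and Podxl was lowest (0.345 ± 0.126). In Selp low paHSCs the order was Selplg (41.5 ± 14.3), Selp (17.5 ± 9.56), Cd44, St3gal4, C1galt1, Fut7 (5.27 ± 1.16), Gcnt1 and Podxl, and the neighbours from Selp to Gcnt1 overlapped. In Selp high paHSCs Selp was first at 89.3 ± 50.6 FPKM, above Selplg (40.7 ± 9.74) and Cd44 (17.5 ± 10.2) with no overlap between these neighbours. Fut7 was seventh at 5.16 ± 1.90 FPKM and overlapped with Gcnt1 (8.19 ± 4.47). Podxl was lowest at 1.28 ± 0.279 FPKM. The transcript of the lectin exceeded that of its main ligand in the Selp high fraction and was below it in the other groups.

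**Figure D4:**
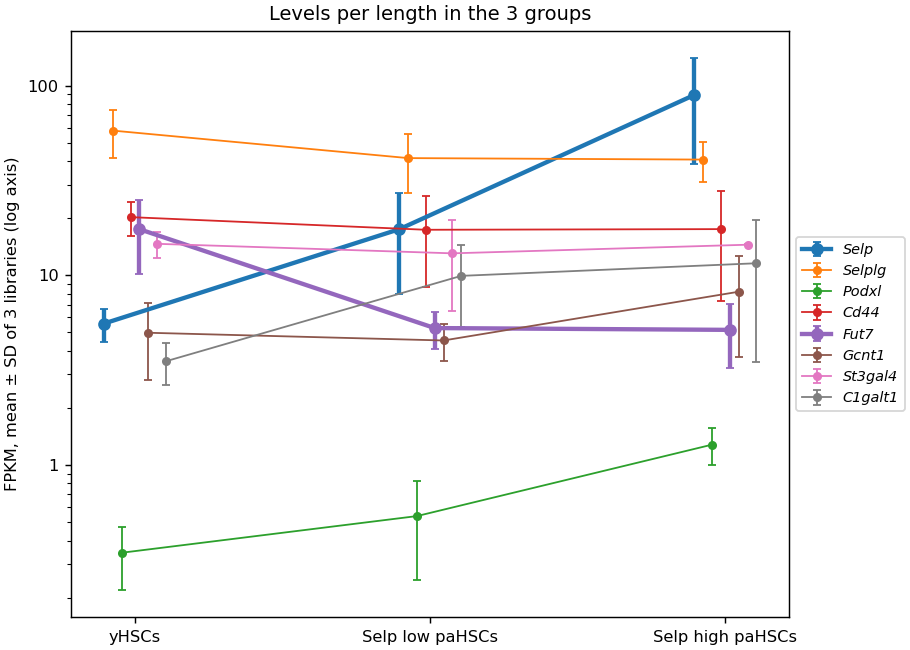
Mean level per length in FPKM with SD (3 libraries per group, log axis) of the 8 genes in each group, with lines joining the means of a gene. Selp went from 5.57 FPKM in yHSCs to 89.3 FPKM in Selp high paHSCs, and Fut7 from 17.5 to 5.16 FPKM.

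Over the 9 libraries, Podxl was the gene of the 8 whose log2 CPM was most like that of Selp (Pearson r = 0.876, Spearman rho = 0.867). Fut7 and C1galt1 had opposite patterns (r = -0.735, rho = -0.833), and Selplg and Fut7 had r = 0.631 (rho = 0.517). These values describe 9 libraries that share group, depth and composition. Among 15767 genes, the protein-coding genes with the pattern most like that of Selp were Arpin (r = 0.988), Jam2 (r = 0.987), which encodes a junctional adhesion molecule, and Ocln (r = 0.982), which encodes the tight junction protein occludin. Those most like Podxl were Dsg2 (r = 0.973), a desmosomal cadherin, Amotl2 (r = 0.972) and Ptprn (r = 0.966). Those most like Fut7 were Macroh2a1 (r = 0.969), a histone variant, Metrnl (r = 0.968) and Map4k5 (r = 0.957). For Selplg they were Tmem82, Susd4 and Zfp658 (r = 0.951, 0.924 and 0.922), for Cd44 Stag2, Ckap5 and Polh (r = 0.98, 0.965 and 0.954) and for C1galt1 Kcnj5, Endod1 and Mss51 (r = 0.983, 0.967 and 0.96). Gcnt1 was most like Lurap1, Alcam and Dennd2c (r = 0.931, 0.93 and 0.917), and St3gal4 most like Atg12, Agtrap and Pcyox1 (r = 0.972, 0.968 and 0.956). The Spearman rho of these most alike genes ranged from 0.683 (Dennd2c with Gcnt1) to 0.983 (Dsg2 and Amotl2 with Podxl). They were picked for the highest r among 15767 genes over 9 libraries, so a high r follows from the choice.

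The other genes of the pathway were taken from 7 lists with 84 genes in all, of which 79 to 81 passed the filter in a comparison. edgeR called 0 of 81 between the paHSC fractions, 1 of 79 in Selp high paHSCs against yHSCs and 0 of 80 in Selp low paHSCs against yHSCs, with 17, 9 and 10 genes at an unadjusted p under 0.05, beside 12.5%, 7.59% and 11.3% of all genes. DESeq2 called 2, 4 and 4 in the same order, beside 2.21%, 2.99% and 2.89% of all genes. The median log2 fold change of the pathway genes was 0.27, 0.22 and -0.01, in the same order. With the replicate block, DESeq2 called 12 of 81 pathway genes between the paHSC fractions (14.8%), beside 9.17% of all genes, whereas edgeR called 0, beside 0.0442% of all genes.

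Sele encodes E-selectin of endothelium, which binds the same sialyl Lewis x cap. It was at 12.5 CPM in Selp high paHSC replicate 1 and at 0.712 to 2.49 CPM in the other 8 libraries, and neither edgeR nor DESeq2 called it in the 3 comparisons.

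Among the 10 other ligand core proteins, Cd34, a sialomucin of hematopoietic progenitors and endothelium, was the gene called by edgeR. It was at 516, 740.1 and 944 CPM in yHSCs, at 169, 21.9 and 46.9 CPM in Selp low paHSCs and at 62.3 to 85.8 CPM in the 3 Selp high paHSC libraries. All paHSC libraries were below all yHSC libraries. It fell 9.86-fold in Selp high paHSCs over yHSCs (log2 fold change -3.30, SE 0.29, adjusted p = 0.0184, edgeR; 6.57e-24, DESeq2). DESeq2 kept this call without each of the 6 libraries in turn, whereas edgeR kept it only without yHSC replicate 1 and lost it in a fit of all 9 libraries. In Selp low paHSCs over yHSCs its log2 fold change was -3.15 (SE 0.77, adjusted p = 0.332, edgeR; 0.00305, DESeq2), and the DESeq2 call was lost without yHSC replicate 3. Cd34 and its relative Podxl lay on opposite sides of the yHSC level in the Selp high fraction.

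Of the sulfation genes, DESeq2 called Chst2, a sulfotransferase that acts on N-acetylglucosamine. It was at 55.3, 29.6 and 26.3 CPM in Selp high paHSCs, at 8.13, 8.96 and 4.38 CPM in Selp low paHSCs and at 3.25, 5.77 and 8.59 CPM in yHSCs. The Selp high libraries were above all others, with a log2 fold change of 2.36 over Selp low paHSCs (SE 0.45, adjusted p = 0.338, edgeR; 0.00475, DESeq2) and of 2.65 over yHSCs (SE 0.47, adjusted p = 0.12, edgeR; 4.54e-06, DESeq2). DESeq2 kept both calls without each library in turn. The other 7 sulfation genes tested had log2 fold changes of 0.18 to 0.84 for Selp high paHSCs over yHSCs and none was called by edgeR or DESeq2.

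Of the 20 genes for sialic acid transfer and supply, St3gal1, which sialylates core 1 O-glycans, was at 140.4, 109.9 and 92.4 CPM in Selp high paHSCs, at 63.2, 46.8 and 39.3 CPM in Selp low paHSCs and at 29.7, 32.3 and 28.1 CPM in yHSCs. The 3 groups did not overlap. Its log2 fold change was 1.89 for Selp high paHSCs over yHSCs (SE 0.27, adjusted p = 0.0655, edgeR; 1.16e-06, DESeq2), a DESeq2 call kept without each of the 6 libraries. DESeq2 also called St6gal1 and Cmah higher in Selp low paHSCs over yHSCs (log2 fold changes 4.51 and 3.36, adjusted p = 0.0188 and 0.0307), the former call kept only without Selp low paHSC replicate 1 or 3 and the latter only without Selp low paHSC replicate 3 or yHSC replicate 2. St6gal1, which adds α2,6-linked sialic acid, was at 41.4 and 169.8 CPM in Selp low paHSC replicates 1 and 2, the libraries with the highest B and plasma cell sums, and at 0.450 CPM in replicate 3. Selp high paHSC replicate 2 had a B and plasma cell sum of 21250 CPM, close to the 21760 CPM of Selp low paHSC replicate 1. St6gal1 was at 0.982 to 17.9 CPM in the Selp high libraries. The part of B and plasma cell markers in these levels was not tested. Cmah, which makes N-glycolylneuraminic acid, was at 61.4 and 145.7 CPM in Selp low paHSC replicates 1 and 2 and lower in replicate 3. For both genes replicate 3 was within the range of the yHSCs or below it.

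Among the 14 genes for fucose transfer and GDP-fucose supply, DESeq2 called Gmds, the enzyme that opens GDP-fucose synthesis. It was at 52.7, 37.3 and 40.6 CPM in Selp high paHSCs, at 23.9, 23.7 and 28.6 CPM in Selp low paHSCs and at 16.4, 22.2 and 20.8 CPM in yHSCs. Its log2 fold change was 1.11 for Selp high paHSCs over yHSCs (SE 0.28, adjusted p = 0.277, edgeR; 0.0171, DESeq2), and DESeq2 kept the call only without Selp high paHSC replicate 2 or 3. Of the 12 genes of this list tested in that comparison, 10 had a log2 fold change above 0 (47.8% of all genes), whereas Fut7 had one of -1.77. Of the 20 genes for the start and core synthesis of mucin-type O-glycans and of the 9 cytoplasmic partners and sheddases, neither edgeR nor DESeq2 called any in the 3 comparisons without the replicate block. With the block, DESeq2 called B3gnt3, B4galt4 and Galnt6 of the former list higher in the Selp high fraction (log2 fold changes 1.82, 1.65 and 1.22, adjusted p = 6.59e-05, 0.000982 and 0.000342). It called Ezr, which encodes the membrane linker ezrin, lower (-1.07, adjusted p = 0.019). Among the other lists, the block added Fut10, Fut8, Papss1, St3gal1 and Emcn on the higher side (1.18, 1.07, 1.19, 1.19 and 1.47) and Fut2 on the lower side (-5.41, SE 1.90, adjusted p = 0.044). Fut2 was near the floor, at 0 to 0.961 CPM in Selp high paHSCs (median 0) and at 0.725 to 0.918 CPM in Selp low paHSCs. The fractions overlapped for Fut2, and its log2 fold change by edgeR without the block was -1.32 (SE 1.78). By edgeR with the block, the adjusted p of the 10 genes that the block added was 0.0896 to 0.437. These genes are named because the block changed their call, and they were chosen after their values were seen.

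**Figure D5:**
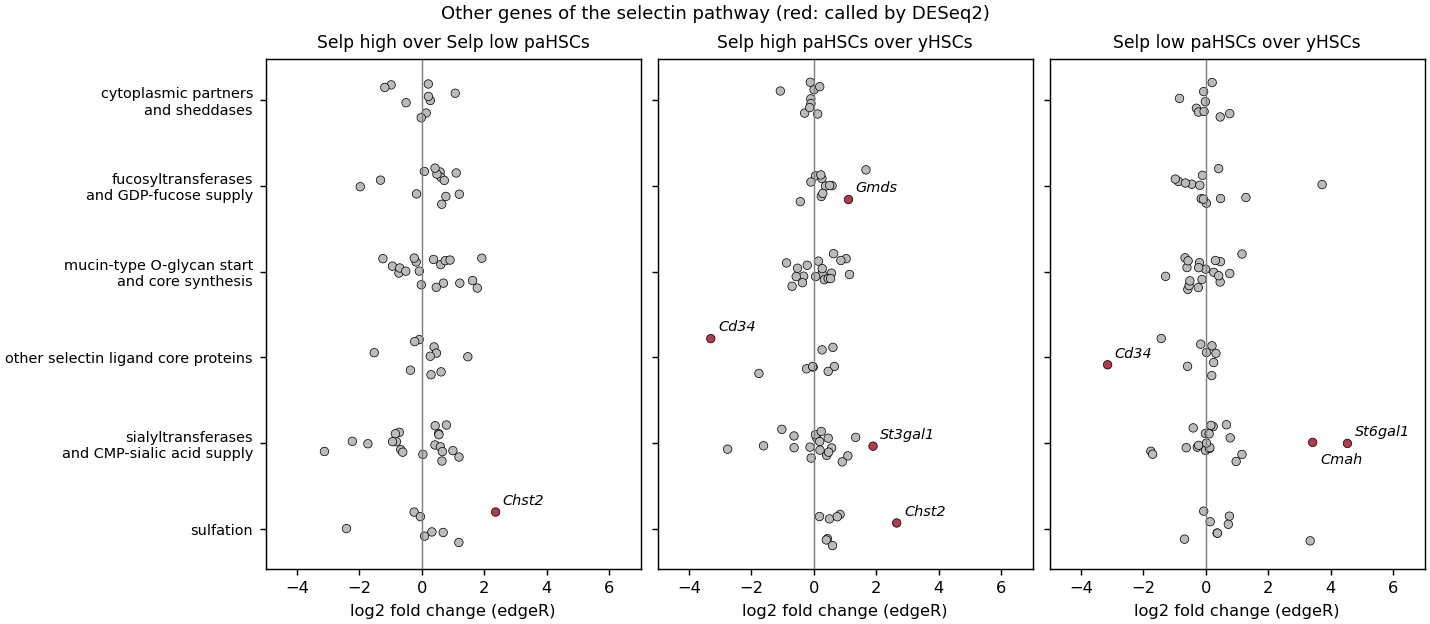
Log2 fold change by edgeR of the genes of 6 pathway lists, without the other selectins, in the 3 comparisons, by list, with genes called by DESeq2 in red and named. In Selp high paHSCs over yHSCs, Chst2 (2.65), St3gal1 (1.89) and Gmds (1.11) were on the higher side and Cd34 (-3.30) was on the lower side.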

How the data were processed

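RNA-seq libraries of 9 sorted HSC samples were analysed. Per the labels and the study's methods, the authors made cDNA with a SMARTer low-input kit, trimmed reads with fastp, aligned them with HISAT2 (2.2.1) and counted them per gene with featureCounts (2.0.6); the submitters' processing notes name build mm39. For the annotation release, for strandedness and for multi-mapping reads, the settings are not stated in the sources used. The deposited values are raw counts for 56748 genes, and 0 columns of per-sample values were left unused. CPM, FPKM and TPM were computed here with TMM factors or library totals and the deposited gene lengths.

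Groups were compared in pairs in R 4.3.3 with edgeR 4.0.16 (quasi-likelihood test, filterByExpr, Benjamini-Hochberg over all genes tested), with DESeq2 1.42.0 and limma 3.58.1 as alternatives. The edgeR and DESeq2 fits were run on simulated counts with known changes. The simulated libraries held no library of unlike composition, so they do not show how the tests perform in these data. The SE was taken from the coefficient and its F statistic. At these depths 3 counts correspond to 0.0848 to 0.121 CPM. Promoters came from a RefSeq table of build GRCm38.p6, which held 6 of the 8 genes (9 windows). The figures were drawn with matplotlib 3.10.9 in Python 3.11.15. The named genes are the 8 genes, Sele, from each pathway list at most the 3 genes with the largest change among those called by edgeR or DESeq2, and for each of the 8 genes the 3 protein-coding genes with the highest r. One item that this rule names is not reported here, although counts over the pathway lists include it. The genes and lists were chosen with earlier results of these data known.

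Residuals of same-numbered libraries correlated at 0.18, 0.28 and 0.30 between the Selp high and Selp low fractions, over 0.1 in every pair. The fits with the replicate block treated the replicate numbers as a pairing of the paHSC fractions, which no label states. With yHSCs the residuals correlated at -0.42 to 0.09, and the numbers were not taken to pair. Correlations of larger size thus arose where no pairing was taken, so those between the fractions cannot establish a pairing. The main fits held no term for the replicate number, so their values between the fractions did not use a pairing. The fits with the replicate block were run as alternatives.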

Additional observations from a re-analysis of the deposited data

How the results depend on the processing

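The number of genes called depended on the fit. Between the paHSC fractions, the 1 of the 8 genes called (Selp) by DESeq2, by DESeq2 with the replicate block and by edgeR with no filter on low counts compares with 0 by edgeR, and the pathway genes called were 2, 12 and 2 in these fits against 0. In Selp high paHSCs against yHSCs, the number of the 8 genes called was 3 by DESeq2 with or without the replicate block, 2 by limma and with no filter, and 0 in a fit of all 9 libraries or by edgeR with the replicate block, against 1. The pathway genes called there were 4 by DESeq2, 3 with the block, 3 by limma and with no filter, 2 by edgeR with its non-legacy dispersion method and 0 by edgeR with the block, against 1. The fit of all 9 libraries called 1 there as well, but St3gal1 in place of Cd34. In Selp low paHSCs against yHSCs, 1 of the 8 genes (Fut7) was called by DESeq2, by limma and with the block by DESeq2, and the pathway genes called were 4, 1, 4 and, with no filter, 3, against 0. Without each replicate in turn, by edgeR or DESeq2, 0 to 1, 0 to 4 and 0 to 2 of the 8 genes and 0 to 8, 0 to 4 and 0 to 9 pathway genes were called in the 3 comparisons. The DESeq2 fits without a library were added after seeing the data.

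The differences that changed sign were called in none of these fits. Between the fractions, the sign turned for Cd44 with RLE (-0.021) or upper-quartile (-0.023) factors, by DESeq2 (-0.0083) and with the replicate block (-0.10 by edgeR, -0.11 by DESeq2), for C1galt1 with the block (-0.082 by edgeR, -0.088 by DESeq2) and, with no filter, for Selplg (0.028) and Fut7 (0.020). Gcnt1 turned by limma in Selp low paHSCs against yHSCs (0.00036). Without each replicate in turn, the log2 fold change between the fractions ranged from -0.25 to 0.29 for Selplg, -0.45 to 0.47 for Cd44, -0.39 to 0.16 for Fut7, -0.089 to 0.63 for St3gal4 and -0.26 to 0.70 for C1galt1. Against yHSCs it ranged from -0.72 to 0.16 (Cd44) and -0.088 to 0.054 (St3gal4) in Selp high paHSCs, and from -0.68 to 0.082 (Cd44), -0.48 to 0.21 (Gcnt1) and -0.66 to 0.080 (St3gal4) in Selp low paHSCs. The difference of the neutrophil sums between the fractions was 0.36 on the log2 scale by library totals, against -0.16. The median over the genes of a fit moved by less than 0.1 with RLE or upper-quartile factors. It moved further in some other fits. Those with no filter and by DESeq2 kept every gene with a count in the libraries compared, so their genes differ from those of the main fit. Between the fractions it was -0.11 in the main fit, -0.39 with no filter, -0.48 by DESeq2 and -0.75 by DESeq2 with the block. In the same order it was 0.08, 0.27, 0.29 and 0.63 in Selp low paHSCs against yHSCs. In Selp high paHSCs against yHSCs it was -0.03, -0.11, -0.13 and -0.10. By DESeq2 without Selp high paHSC replicate 2 it was -1.15 between the fractions. By DESeq2 without yHSC replicate 1 it was 1.11 in Selp low paHSCs against yHSCs. The cause of these changes was not tested. At 3 libraries per group, a gene that was not called is not shown to be unchanged.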
